A study of Mus musculus with 131 samples.

Results

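The HOX genes of the mouse lie in 4 clusters, and the members described here are the 39 genes of the expression table, out of 24397 rows, whose symbol is Hox followed by a, b, c or d and a number. Each member was examined as its annotated gene with 2 kb on each side. All coordinates are in the genome build mm9. The Hoxa cluster holds 11 members on chromosome 6, Hoxb 10 in chr11:96055675-96229567, Hoxc 9 in chr15:102751562-102867283 and Hoxd 9 in chr2:74506367-74603199. The annotated spans of *Hoxa3* and *Hoxd3* run across neighbouring members (*Hoxa4*, *Hoxa5* and *Hoxa6*, and *Hoxd4*), so 143 of 1036 tiles belong to more than 1 member.

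HOX genes encode homeodomain transcription factors that give cells of the embryo their position along the head to tail axis. The order of the genes on the chromosome follows the order in which they are used, with low numbers toward the head and high numbers toward the tail and the limb ends. In cells that do not use them the clusters are typically covered by Polycomb proteins, and their CpG islands are then often free of DNA methylation. Once adult, many cell types keep a HOX pattern from the part of the embryo in which they arose, and the blood lineage uses some HOX genes in its early stages.

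The series holds 131 samples of C57Bl mice. Hepatocytes were purified from liver and freed of CD45-positive cells by sorting. Cre recombinase was given in the virus AAV8 under the hepatocyte-specific Tbg promoter, so that deletion is driven in hepatocytes. Controls injected at 1 day (3 mice with RRBS) or at 3 weeks (3 mice) are labelled WT and received the same virus. DKO mice (*Tet2* F/*Tet3* F) were injected at the same times (2 mice each), and all 4 groups were taken at 15 weeks. Uninjected WT mice of 3 weeks (2 with RRBS), mice floxed for the insulin receptor and injected after birth (InsR KO, 2 mice, taken at 15 to 20 weeks) and hepatocyte cultures kept in vitro (2, labelled 1 week) complete the hepatocyte groups. The cultures were started from newborn liver cells that were not sorted, and the paper describes several weeks in culture. Fat of a WT mouse of 25 weeks and neutrophils of a WT mouse of 36 weeks had 1 RRBS library each. WGBS was available from 1 newborn (labelled 1 week), 1 adult WT and 1 DKO library (injected at 1 day), both of 15 weeks. RNA-Seq came from 18 libraries, 1 of 1 week WT, 3 each of 3 week WT, 15 week WT, both injected controls and DKO injected at 1 day, and 2 of DKO injected at 3 weeks. Histone marks were read in hepatocytes of 15 weeks, with 1 library per mark from WT and from DKO injected at 1 day. ATAC-Seq and HNF6 were read in liver labelled WT or as deleted for *Tet2* and *Tet3* (KO), 2 libraries each with no age in the labels, and 5hMeDIP in WT hepatocytes of 20 days.

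The targeted genes were read over the whole gene. *Tet2* was at 2.82 to 4.08 FPKM in DKO mice injected at 1 day and at 0.890 to 2.13 FPKM in their controls, and *Tet3* at 1.74 to 2.78 against 1.68 to 2.55 FPKM. After injection at 3 weeks *Tet2* was at 0.824 to 1.84 FPKM in the DKO mice and 2.08 to 2.99 in controls, and *Tet3* at 1.56 to 1.67 against 2.44 to 2.89 FPKM, without overlap. The value of a whole gene does not isolate a floxed exon, and after injection at 1 day it goes against the label for *Tet2*, so DKO stands throughout for the libraries labelled so. Of 10 hepatocyte markers, 9 were found in every library, with a summed level of 15393 to 22454 FPKM over the list, and *Alb* was listed at 0 throughout. An exact 0 can therefore be a failed estimate in this table. The 3 libraries of 3 week WT had *Xist* at 48.0 to 77.1 FPKM and the 3 of 15 week WT at 0.0113 to 0.0272 FPKM, so age and sex cannot be told apart in that comparison. Of the 3 controls injected at 3 weeks, the third had *Xist* at 88.1 FPKM and the other two at 0.0116 and 0.0384 FPKM, while all controls injected at 1 day and all DKO libraries were at 0 to 0.0350 FPKM. The RRBS mice carry the animal numbers of these RNA libraries, so the same holds for RRBS, where both 3 week WT mice and the third control injected at 3 weeks had *Xist*. No label states that mice of a group were from separate litters, so p-values measure the spread between these mice.

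HOX genes had little RNA signal in hepatocytes. No member reached 1 FPKM in any library, while 47.5% of all genes did. Of the 39 members, 14 (35.9%) were listed at 0 in all 18 libraries, as were 20.8% of all genes, and 80.1% of the 702 HOX values were 0, as were 36.8% of all values. A value above 0 was found for 14 of 18 members of paralog groups 1 to 6, the head end, and for 10 of 19 of groups 8 to 13, the tail end, where the highest mean was 0.00561 FPKM, of *Hoxc11*. The 5 members with the highest means were of the head end, and *Hoxa5*, which is needed for lung development, came first. In 3 week WT mice *Hoxa5* was at 0.159, 0.173 and 0.407 FPKM. In 15 week WT mice it was at 0.0313, 0.0476 and 0.0795 FPKM, so the groups did not overlap. *Hoxa5* was picked by its mean, and the share of all genes without overlap was not counted. The 1 library of 1 week WT, with *Xist* at 0.0609 FPKM, had *Hoxa5* at 0.0822 FPKM, below all values at 3 weeks. The next members by mean, *Hoxb2*, *Hoxb4*, *Hoxb3* and *Hoxa2*, which pattern the hindbrain, had maxima of 0.0963, 0.0854, 0.0549 and 0.0820 FPKM.

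Because no member reached a mean of 1 FPKM in a condition, none entered the limma fit on log2(FPKM + 1) over 11166 genes. In that fit DKO injected at 1 day raised 4.33% and lowered 15.6% of genes against controls, DKO injected at 3 weeks raised 0.905% and lowered 4.34%, and 15 week WT mice had 24% of genes higher and 9.32% lower than 3 week WT. Without the minimum, 2 of 39 members passed in the last comparison, both lower at 15 weeks, where 6.27% of all genes were lower (limma with Benjamini-Hochberg adjustment). *Hoxa5* changed by -0.24 ± 0.059 (SE, adjusted p = 0.016) and *Hoxa3*, which is needed for the thymus and the parathyroid, by -0.07 ± 0.018 (SE, adjusted p = 0.0221) on this scale, which compresses low values. Markers of other liver cells differed between the same libraries. The 6 stellate and fibroblast markers summed to 15.6 to 55.1 FPKM at 3 weeks and to 11.4 to 22.4 FPKM at 15 weeks. The 6 endothelial markers summed to 12.4 to 21.4 and to 2.44 to 5.03 FPKM, and 9 leukocyte markers to 2.44 to 5.69 and to 0.717 to 0.959 FPKM. The 5 cholangiocyte markers summed to 5.24 to 9.42 and to 6.05 to 8.21 FPKM. The 4 erythroid markers went the other way, with 9.25 to 13.2 FPKM at 3 weeks and 40.1 to 45.7 FPKM at 15 weeks. No marker of these lists was at 0 in all libraries of either age, and their part in the result was not tested. In the 1 library of 1 week WT the erythroid list summed to 1168, the cholangiocyte list to 121 and the leukocyte list to 51.4 FPKM. Its stellate and fibroblast list summed to 12.4 and its endothelial list to 6.15 FPKM. In bulk RNA, fewer cells of a type and less RNA per cell cannot be told apart.

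The HOX regions also carried little DNA methylation in hepatocytes. RRBS gives the methylated share of CpG readings per 100 bp tile, and 513 HOX tiles had a value in all 16 hepatocyte samples. Their mean was 3.81% to 5.73% per sample, and 81.7% to 91.0% of them were under 10% methylated. The mean over all 257117 such tiles was 52.0% to 54.3%. HOX tiles with any value held a median of 5 CpGs, as against 3 over all tiles of the table. The table gives no coverage, so the depth behind a value is unknown.

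All members were low. Over the 6 injected controls the highest regions were *Hoxd4* at 12.1% ± 4.24 (SD, n = 6), *Hoxc10* at 10.4% ± 2.72, *Hoxa5* at 9.85% ± 2.03 and *Hoxb13*, a gene of the tail end, at 9.08% ± 3.03. The lowest of those with at least 3 tiles were *Hoxd8* at 2.13% ± 1.63, *Hoxc8* at 2.36% ± 0.58, *Hoxa13* at 2.71% ± 1.36 and *Hoxd11*, a gene of the forearm, at 2.90% ± 0.365. These neighbours in the order do not differ beyond their spread. The tests on regions used the 38 members with at least 3 tiles. A mean of at least 20% was found at 12 of the 513 tiles. The most methylated of them were chr6:52149901-52150000 between *Hoxa5* and *Hoxa4*, inside the span of *Hoxa3*, at 43.2% (28.5% to 53.4%), and chr11:96054101-96054200 beside *Hoxb13*, at 40.3% (24.1% to 70.6%).

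**Figure D1:**
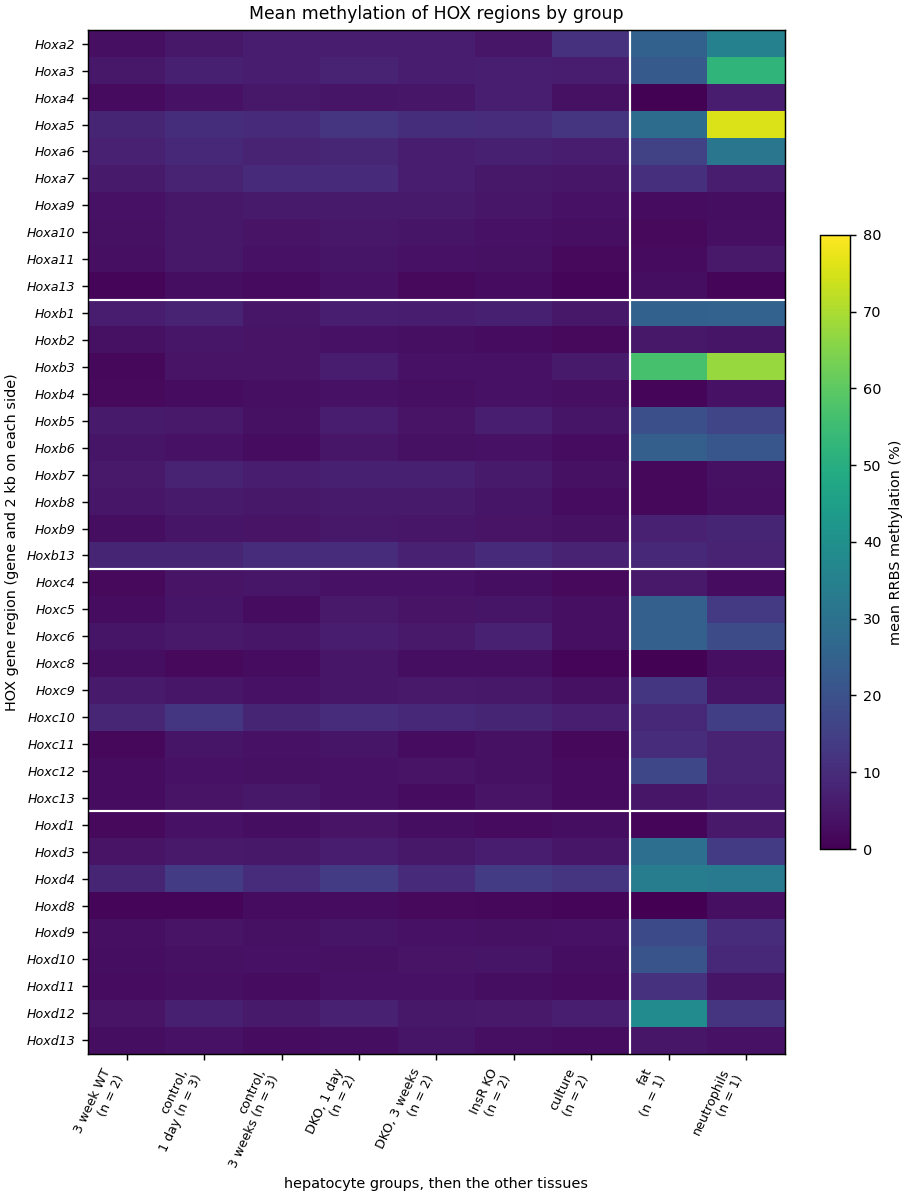
Mean RRBS methylation (colour, in %) of 38 HOX regions (rows, by cluster) in the 7 hepatocyte groups and in fat and neutrophils (columns, with the number of samples). Hepatocyte means are over tiles with a value in all 16 hepatocyte samples and tissue means over tiles with a value in the 6 injected controls and both tissues. The hepatocyte columns stay dark throughout, while *Hoxb3* reaches 56.8% in fat and *Hoxa5* 75.9% in neutrophils.

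The question of the fat and neutrophil libraries was which tiles set hepatocytes apart from other tissues. At HOX genes the other tissues were the methylated ones. Of 621 HOX tiles with a value in the 6 injected controls and both tissues, 42 (6.76%) were at least 50 points higher in fat than the mean of the controls, against 1.58% of all 375549 tiles, and 62 (9.98%) were as much higher in neutrophils, against 2.96%. In the opposite direction no HOX tile differed by 50 points, where 3.48% of all tiles were lower in fat and 2.37% lower in neutrophils. Most HOX tiles start near 0 and can differ in 1 direction alone. Among tiles under 10% in the controls, fat was higher at 37 of 552 HOX tiles (6.70%, with 3.14% over all such tiles) and neutrophils at 48 (8.70%, with 5.38%). Each tissue has 1 library, of another age than the controls, so these are differences between libraries, with no test, and tissue, age and library cannot be told apart.

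The methylated tiles fell on a few members. Fat had them in 13 members and neutrophils in 10. In fat the 6 regions with the largest difference from the controls were *Hoxb3* (56.8% against 4.25% ± 0.857, SD of 6 mice), *Hoxd12*, a gene of the digits (38.6% against 6.04% ± 1.01), *Hoxd3*, which shapes the first neck vertebrae (29.3% against 5.00% ± 0.679), *Hoxd4* (33.6% against 10.2% ± 2.85), *Hoxc5* (24.6% against 4.83% ± 1.53) and *Hoxa2*, which gives the hyoid arch its identity (24.8% against 5.33% ± 1.10). All 6 stood above the highest of the 6 controls, which for *Hoxd4* was 15.8%. In neutrophils they were *Hoxa5* (75.9% against 9.93% ± 2.63), *Hoxb3* (67.6% against 4.25% ± 0.857), *Hoxa3* (52.2% against 6.95% ± 0.718), *Hoxa2* (35.1% against 5.33% ± 1.10), *Hoxa6* (31.4% against 6.96% ± 0.613) and *Hoxd4* (32.6% against 10.2% ± 2.85). Of the 19 tiles of *Hoxa5*, 15 were higher in neutrophils by 50 points and none in fat. *Hoxb3* had 14 such tiles in neutrophils and 10 in fat, also of 19.

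The tissues shared part of this pattern. Of the 84 tiles that were 50 points higher in either tissue, 20 were so in both, which is 47.6% of the 42 tiles of fat and 32.3% of the 62 tiles of neutrophils. Hoxa supplied 38 tiles of neutrophils and 7 of fat, Hoxb 17 and 13, Hoxd 7 and 17, and Hoxc 0 and 5. By position in the cluster, the 18 members of paralog groups 1 to 6 had a median of 23.4% in fat, 17.5% in neutrophils and 4.91% in the controls. The 19 members of groups 8 to 13 had 7.50%, 5.50% and 4.14%. At least 20% was reached by 10 of 18 members at the head end in fat and 8 in neutrophils, and by 2 and 0 of 19 at the tail end, the pair in fat being *Hoxd12* and *Hoxd10*. Not every head-end member took part. *Hoxa4*, within the span of *Hoxa3*, was at 0.344% in fat and 6.36% in neutrophils, *Hoxb4*, beside *Hoxb3*, at 1.23% and 3.99%, and *Hoxb2* and *Hoxd1* were below 6% in both.

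**Figure D2:**
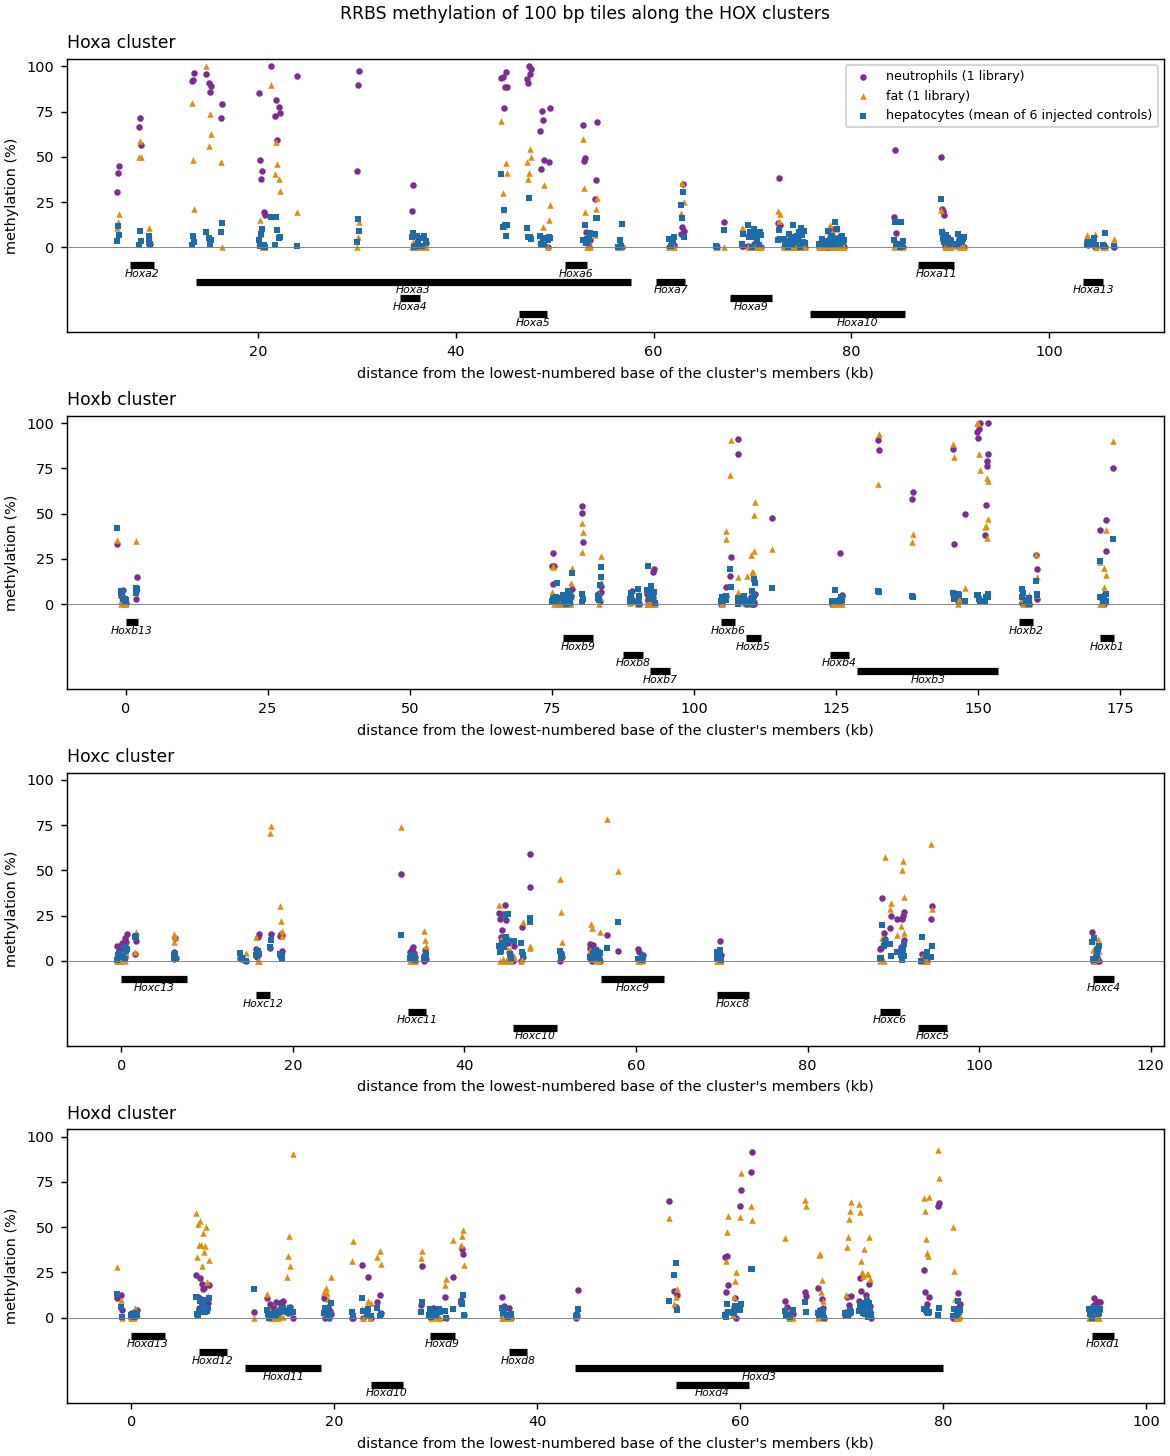
RRBS methylation (y axis, %) of the HOX tiles of 38 members against its distance in kb from the lowest-numbered base of the cluster's members (x axis), for neutrophils (circles), fat (triangles) and the mean of 6 injected controls (squares); black bars are the annotated genes. Neutrophil points form tall columns over *Hoxa3*, *Hoxa5* and *Hoxb3* and lie mostly near the controls from *Hoxa7* to *Hoxa13*, while fat is spread over *Hoxd3*, *Hoxd12* and *Hoxb3*.

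The largest unbroken runs of such tiles, without a measured tile below the limit in between, give the extent. In neutrophils 12 tiles at chr6:52149901-52153900 (over part of *Hoxa5* and its flank) averaged 90.0%, against 13.7% in the controls and 37.1% in fat, and 10 tiles at chr6:52118601-52125500 in *Hoxa3* averaged 87.8%, against 5.52% and 49.2%. In fat the longest was 5 tiles at chr2:74577001-74578200 in *Hoxd3*, at 59.8%, where the controls were at 3.92% and neutrophils at 10.5%. Another of 4 tiles at chr11:96205501-96206000 in *Hoxb3* was shared, at 89.3% in fat, 95.9% in neutrophils and 3.62% in the controls. Of the 62 tiles higher in neutrophils, 28 (45.2%) touched a coding exon and 19 (30.6%) lay in introns. Of the 42 in fat, 19 (45.2%) and 13 (31.0%) did so, and 1 (2.38%) lay within 1 kb upstream of a start. Over all 621 HOX tiles these shares were 36.7%, 28.5% and 8.05%. The tiles high in neutrophils held a median of 4.5 CpGs, those high in fat 5 and those high in neither 6.

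The sequences of the tiles with the largest difference, at most 1 per member and tissue, are shown with every CpG in capitals, since these are the bases whose methylation was read. They are written 5′ to 3′ on the plus strand of mm9, on which *Hoxb3*, *Hoxb4* and *Hoxb5* are read forward and the Hoxa genes backward. The other tile chosen for fat, chr2:74585801-74585900 in *Hoxd3*, lay in a UTR and is not printed. The first *Hoxb3* tile (coding exon, chr11:96205601-96205700) was at 100% in fat, 91.7% in neutrophils and 4.76% ± 4.80 (SD, n = 6) in the controls, and the *Hoxa3* tile (coding exon, chr6:52120001-52120100) at 100%, 95.8% and 8.66% ± 8.91. The second *Hoxb3* tile (coding exon, chr11:96205901-96206000) was at 100% in neutrophils, 74.0% in fat and 1.73% ± 2.21 in the controls. The *Hoxa5* tile (intron of *Hoxa5* and of *Hoxa3*, chr6:52152901-52153000) was at 98.4%, 50.0% and 4.31% ± 4.38, and the tile upstream of *Hoxb5* (chr11:96163301-96163400) at 91.1%, 15.2% and 0% in all 6 controls.
Hoxb3, high in fat: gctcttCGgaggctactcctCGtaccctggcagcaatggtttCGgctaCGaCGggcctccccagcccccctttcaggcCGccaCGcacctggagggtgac
Hoxa3, high in fat: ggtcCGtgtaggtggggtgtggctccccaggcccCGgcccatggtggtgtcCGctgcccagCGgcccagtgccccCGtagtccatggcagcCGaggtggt
Hoxb3, high in neutrophils: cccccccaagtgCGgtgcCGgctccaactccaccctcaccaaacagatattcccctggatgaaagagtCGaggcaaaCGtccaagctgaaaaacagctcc
Hoxa5, high in neutrophils: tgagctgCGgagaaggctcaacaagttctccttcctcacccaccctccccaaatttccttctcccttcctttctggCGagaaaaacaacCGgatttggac
Hoxb5, upstream, high in neutrophils: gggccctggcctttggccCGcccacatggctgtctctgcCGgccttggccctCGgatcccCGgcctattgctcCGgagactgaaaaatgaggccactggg

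Beside these stand coding tiles of *Hoxa4* (chr6:52141401-52141500, 17 CpGs) and *Hoxb4* (chr11:96180401-96180500, 11 CpGs), chosen after their values were seen to show members that stayed low. Both were at 0% in fat and in neutrophils, and at 6.25% ± 4.45 and 7.86% ± 2.68 (SD, n = 6) in the controls. They hold more CpGs than any of the 5 tiles above, which have 3 to 7.
Hoxa4, low in all: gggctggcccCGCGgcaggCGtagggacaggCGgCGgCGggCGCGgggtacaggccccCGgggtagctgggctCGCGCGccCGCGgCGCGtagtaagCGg
Hoxb4, low in all: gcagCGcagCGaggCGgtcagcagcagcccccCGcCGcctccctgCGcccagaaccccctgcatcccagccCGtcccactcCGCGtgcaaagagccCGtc

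Other developmental transcription factors, 130 genes of families such as Pax, Tbx, Irx, Dlx, Lhx, Nkx, Sox, Gata and Fox, served for comparison. Of 39 HOX regions, 15 (38.5%) were at least 10 points higher in fat than the controls and 10 (25.6%) in neutrophils. Among 121 regions of the other families these were 7 (5.79%) and 4 (3.31%), and over all 16836 regions 5.06% and 10.6%. At the level of tiles, 44 of 3198 in the other families (1.38%) were 50 points higher in fat and 56 (1.75%) in neutrophils, from a control mean of 21.3%. The difference between the families was not tested.

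The DKO comparisons asked whether loss of *Tet2* and *Tet3* after birth changes methylation, and HOX regions showed little of it. After injection at 1 day the HOX mean was 5.52% and 5.73% in the DKO mice and 4.96%, 5.12% and 5.67% in their controls, and the groups overlapped. None of 38 HOX regions passed (limma over 15516 regions, adjusted p under 0.05), while 12.9% of all regions did. At an unadjusted p under 0.05 there were 3 (7.89%), with 21.6% of all regions. The median difference was 0.56 points over HOX regions and 0.55 over all, with 25 of 38 HOX regions (65.8%) and 72.1% of all above 0. Over 5939 other regions under 20% methylated it was 0.19 points, with 74.2% above 0. None of 513 HOX tiles passed the limit of 20 points with an adjusted p under 0.05, where 1.73% of all tiles passed, and none with an unadjusted p under 0.05, where 3.26% did.

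The largest differences stayed within a few points. *Hoxc8*, which acts in the thorax and the forelimb level of the spinal cord, was at 4.32% and 5.54% in the DKO mice and at 1.69%, 1.96% and 2.50% in controls, without overlap (2.88 ± 0.888 points, SE, adjusted p = 0.0589 in limma). *Hoxc8* was picked by size, and the share of all regions without overlap was not counted. *Hoxb3* was at 6.13% and 6.94% against 3.90%, 4.15% and 4.77% (2.26 ± 0.987, adjusted p = 0.209). *Hoxc10*, a gene of the hindlimb level, lay lower, at 9.81% and 10.7% against 10.4%, 13.4% and 13.9% (-2.29 ± 0.959, adjusted p = 0.184), and *Hoxb13* differed by 2.02 ± 2.22 (adjusted p = 0.755). With the spread taken from these 2 groups alone, *Hoxb3* and *Hoxc8* passed, and without the first control *Hoxc10* passed as lower. Among tiles, the 3 largest differences were -16.7 points at chr15:102798101-102798200 (intron of *Hoxc10*), 15.8 at chr2:74539001-74539100 beside *Hoxd9* and 15.4 at chr6:52150101-52150200 (UTR of *Hoxa3*, flank of *Hoxa5*). The *Hoxd9* tile was at 27.6% and 30.4% in the DKO mice and at 9.23% to 18.1% in controls (adjusted p = 0.0987 in limma).

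After injection at 3 weeks the HOX mean was 4.74% and 4.92% in the DKO mice and 4.64%, 4.76% and 4.82% in their controls. None of 38 regions passed in limma, where 5.25% of all regions did, and none of 513 tiles, where 0.436% did. At an unadjusted p under 0.05 there were 3 HOX regions (7.89%, with 14.2% of all) and 0 tiles (2.33% of all). Without the third control, the one with *Xist*, 0 HOX regions and 0 tiles passed as well. The largest differences were -2.96 ± 1.56 points (SE, adjusted p = 0.457) for *Hoxa7*, -2.73 ± 2.22 (adjusted p = 0.716) for *Hoxb13*, -2.47 ± 1.07 (adjusted p = 0.324) for *Hoxc13*, which acts in hair and nails, and 2.07 ± 0.929 (adjusted p = 0.346) for *Hoxd13*, a gene of the digits. *Hoxa7* and *Hoxd13* did not overlap between the groups, with *Hoxd13* at 4.44% and 4.88% against 2.15%, 2.64% and 2.98%. Both were picked by size, and the share of all regions without overlap was not counted. The tiles that differed most were chr6:52168301-52168400 (intron of *Hoxa7*, -17.9 points), chr2:74578901-74579000 (intron of *Hoxd3*, 14.5 points) and chr6:52179601-52179700 (flank of *Hoxa10*, intron of *Hoxa9*, 13.4 points). In *Hoxd3* the DKO mice were at 11.1% and 17.9% and the 3 controls at 0% (adjusted p = 0.0817 in limma). The difference between DKO mice and controls differed between injection at 1 day and at 3 weeks in 0.664% of all regions and in none of 38 HOX regions (2 at an unadjusted p under 0.05 in limma, 5.26%, with 8.77% of all regions).

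**Figure D3:**
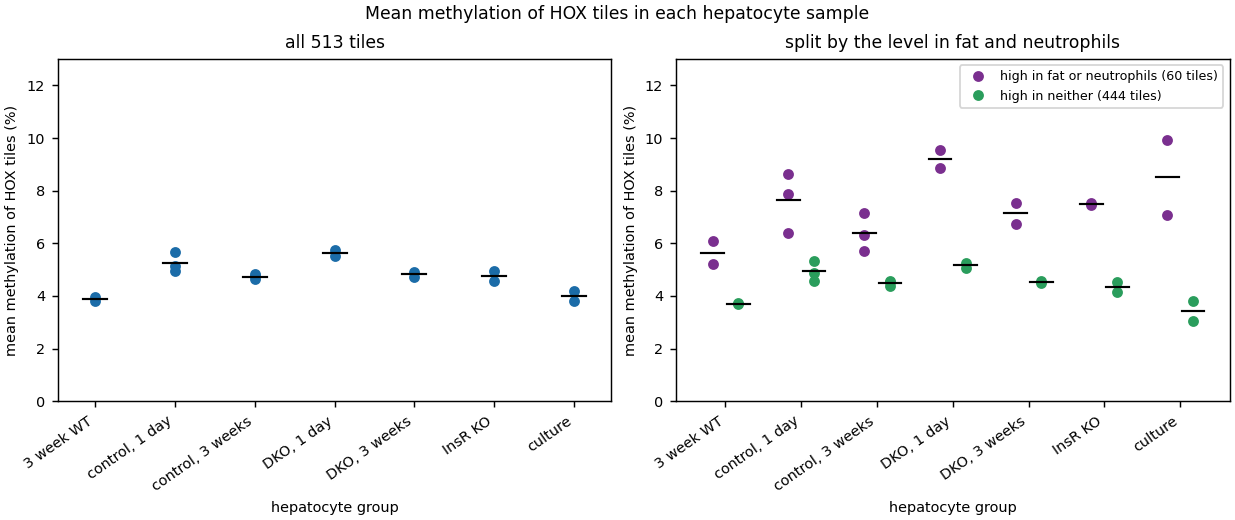
Mean methylation (y axis, %) of HOX tiles in each hepatocyte sample (points) by group (x axis), with group means as bars, for 513 tiles on the left and on the right for 60 tiles that were 50 points higher in fat or neutrophils and 444 that were not. The 3 week WT mice at 3.82% and 3.98% sit below the 6 injected controls at 4.64% to 5.67%, and the 1 culture at 9.93% on the right stands above the 3 week WT mice at 5.21% and 6.07%.

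HOX methylation was slightly lower in young mice. The 3 week WT mice had HOX means of 3.82% and 3.98%, below all 6 injected controls of 15 weeks at 4.64% to 5.67%. The median difference was -1.14 points over 38 regions and -0.03 over all, with 5 of 38 HOX regions and 46.7% of all regions above 0. In single regions this did not pass. Of 38, 0 were called in limma, where 4.05% of all were, and 0 of 513 tiles, where 0.382% were. At an unadjusted p under 0.05 there were 6 HOX regions (15.8%), near the 14.7% of all regions, and 0 tiles (2.13% of all). *Hoxd4* was at 6.22% and 10.2% in the young mice and at 9.10% to 20.5% in the controls (-3.91 ± 2.35 points, SE, adjusted p = 0.526 in limma). *Hoxa7* differed by -2.87 ± 1.40 (adjusted p = 0.392), *Hoxc11*, a hindlimb gene, by -2.61 ± 0.945 (adjusted p = 0.202) and *Hoxa2* by -2.47 ± 2.00 (adjusted p = 0.694). *Hoxc11* did not overlap, with 0.774% and 2.58% against 3.42% to 5.42%, but the share of all regions without overlap was not counted.

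By tile, the 3 largest differences between 3 weeks and 15 weeks were in introns, at chr2:74567401-74567500 in *Hoxd3* (-18.2 points), chr15:102809401-102809500 in *Hoxc9* (16.3 points) and chr6:52168301-52168400 in *Hoxa7* (-16.0 points), and all 3 overlapped between the groups. The last is also the *Hoxa7* tile named for the DKO mice, and both comparisons use the controls injected at 3 weeks. These controls had it at 33.9% to 42.6%, above the 3 week WT mice at 10.3% and 19.2%. The other developmental families had a median difference of -0.50 points over 121 regions, with 28.9% above 0, and 5939 other regions under 20% methylated had -0.01 points, with 45.7% above 0. The young mice were uninjected and the adults injected. Both young mice had *Xist* and 5 of the 6 adults did not, so that age, injection and sex cannot be told apart. The 1 adult with *Xist* had a HOX mean of 4.64%, the lowest of the 6 adults and above both young mice.

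WGBS of newborn and adult hepatocytes asks the same of age, in all 39 members. It covered 1505 HOX tiles of 200 bp, whose mean was 11.7% in the newborn, 13.7% in the adult WT and 14.1% in the DKO library. Over all 8049849 tiles the means were 78.7%, 75.8% and 76.4%, so the adult mean was above the newborn at HOX tiles and below it over the genome. The adult WT library was higher than the newborn in 37 of 39 HOX regions, by a median of 1.74 points, with *Hoxa6* (11.0% and 9.93%) and *Hoxb6* (8.85% and 7.69%) as exceptions. Over all 23057 regions 15.2% were higher in the adult. Among 181 other regions under 20%, 137 (75.7%) were higher, by a median of 1.60 points. *Hoxc4* had the largest difference, with 6.88% in the newborn and 15.2% in the adult, followed by *Hoxb2* with 15.0% and 20.4%. *Hoxd1* stood apart at 43.0%, 43.8% and 43.2%, although its RRBS tiles were at 3.34% ± 0.919 (SD, n = 6) in the controls. WGBS covered 30 tiles there and RRBS 12.

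Large WGBS differences were counted at 35 points. None of 1505 HOX tiles was 35 points higher in the newborn, against 1.63% of all tiles. In the newborn 67.3% of HOX tiles and 2.41% of all tiles were under 10%, and such tiles cannot be 35 points higher there. In the other direction 4 HOX tiles (0.266%) were 35 points lower, near the 0.261% of all tiles. These 4 were inside *Hoxb3* (chr11:96196401-96196600, 21.1% in the newborn and 64.3% in the adult), inside the span of *Hoxa3* beside *Hoxa5* (chr6:52151401-52151600, 22.7% and 64.7%), beside *Hoxb5* (chr11:96167601-96167800, 41.4% and 81.8%) and beside *Hoxc11* (chr15:102783601-102783800, 3.70% and 39.1%). In the DKO library they were at 72.4%, 35.3%, 60.0% and 9.30%. No HOX tile was 35 points higher in the DKO than in the adult WT library, against 1.98% of all, and 1 (0.0664%) was lower, against 0.24%. It lay inside *Hoxd3* (chr2:74556001-74556200) at 30.8% in the DKO and 73.7% in the WT. By region, DKO was higher than adult WT in 27 of 39 HOX regions by a median of 0.66 points, and in 64.1% of all regions by 0.94. Among the 181 other regions under 20% it was higher in 80.1%, by a median of 1.03 points. Each group has 1 library, so these differences have no replicate check and no test.

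**Figure D4:**
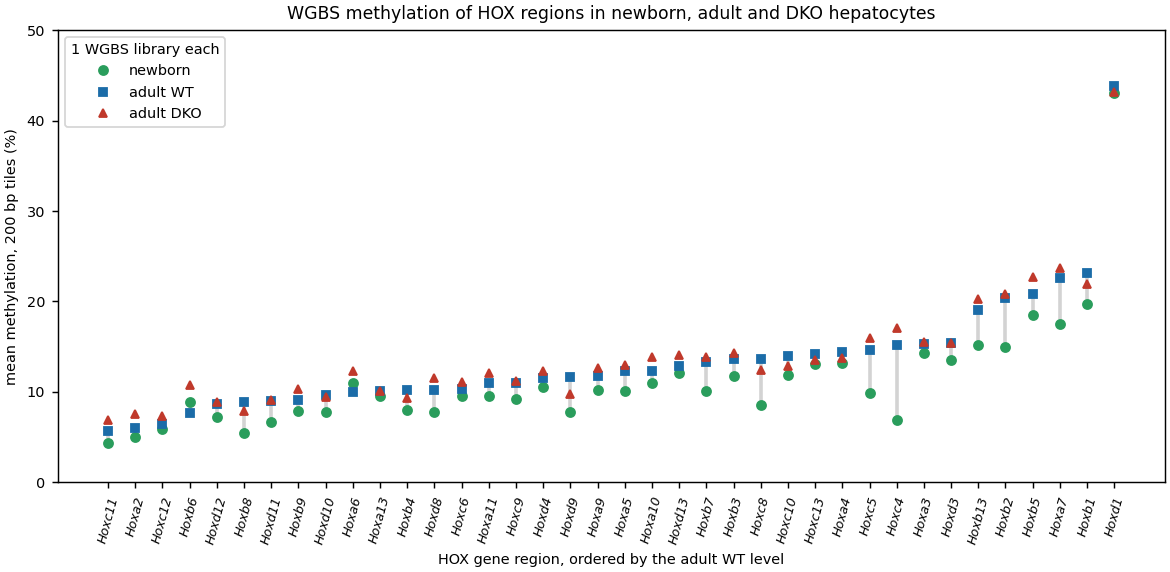
Mean WGBS methylation (y axis, %) of 38 HOX regions in the newborn (circles), adult WT (squares) and DKO (triangles) hepatocyte library, ordered by the adult level (x axis), with a grey line from newborn to adult. The adult square lies above the newborn circle in all regions shown but *Hoxa6* and *Hoxb6*, and *Hoxd1* stands apart near 43% in all 3 libraries.

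InsR KO mice were compared with the controls injected at 1 day, which also serve the DKO comparison above. One HOX region of 38 passed, where 2.71% of all regions did (limma). At an unadjusted p under 0.05 there were 5 (13.2%), with 14.3% of all. The region called was *Hoxc10*, at 7.38% and 9.09% in the InsR KO mice and at 10.4%, 13.4% and 13.9% in controls, without overlap (-4.33 ± 0.959 points, SE, adjusted p = 0.0406 in limma). The share of all regions without overlap was not counted. The controls injected at 3 weeks had *Hoxc10* at 7.28%, 8.13% and 9.24%, the same range as the InsR KO mice, so the controls injected at 1 day were the high group. The adjusted p was 0.0525 on a logit scale and 0.275 with the spread of these 2 groups alone, and leaving out 1 mouse gave 0.00723 to 0.194, with the call lost in 4 of 5 cases. *Hoxa7* (-3.03 ± 1.56, adjusted p = 0.43), *Hoxa4* (2.77 ± 0.927, adjusted p = 0.178) and *Hoxb2* (-2.10 ± 0.764, adjusted p = 0.221) followed by size. No HOX tile of 513 passed, where 0.761% of all did, and 1 passed at an unadjusted p under 0.05, where 2.8% of all did. That was chr15:102796301-102796400, within 1 kb upstream of a start of *Hoxc10*, at 0% and 6.90% in the InsR KO mice and 21.2% to 45.7% in controls (adjusted p = 0.248). The others with large differences were chr2:74504901-74505000 beside *Hoxd13* (-15.5 points) and chr6:52140501-52140600 in a coding exon of *Hoxa4* (15.4 points).

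The cultures were compared with the same 3 week WT mice as above. The 2 cultures had HOX means of 3.81% and 4.19%, next to 3.82% and 3.98% in the 3 week WT mice. None of 38 regions passed in limma, where 3.01% of all did, and none of 513 tiles, where 0.518% did. At an unadjusted p under 0.05 there were 5 regions (13.2%, with 14.7% of all) and 3 tiles (0.585%, with 2.99% of all). The 4 largest differences were all upward, for *Hoxa2* (6.41% and 16.7% against 2.11% and 4.57%, 8.22 ± 2.44 points, SE, adjusted p = 0.118 in limma), *Hoxa5* (11.4% and 13.4% against 7.58% and 8.72%, 4.25 ± 1.67, adjusted p = 0.257), *Hoxb3* (3.37% and 7.98% against 1.55% and 2.14%, 3.83 ± 1.08, adjusted p = 0.098) and *Hoxd4* (3.72 ± 2.87, adjusted p = 0.637). The first 3 did not overlap between the groups, which have 2 samples each. The members were picked by size, and the share of all regions without overlap was not counted. All 4 were among the 9 members, of 38, named above for fat or neutrophils. Some of these 9 share tiles, and the overlap was not tested. Of single tiles, chr2:74512901-74513000 in the UTR of *Hoxd12* was at 12.8% and 37.5% in culture and 0% to 2.59% in the mice, chr6:52150501-52150600 in the UTR of *Hoxa3* beside *Hoxa5* at 25.3% and 28.6% against 1.11% to 7.33%, and chr11:96205501-96205600 in a coding exon of *Hoxb3*, next to the first tile printed above, at 4.55% and 40.0% against 1.01% to 1.12%. *Hoxb3* passed on a logit scale and without the first culture, and *Hoxa2* passed without the second.

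Split by the tissue pattern, the 60 tiles that were 50 points higher in fat or neutrophils averaged 7.07% and 9.93% in the cultures and 5.21% and 6.07% in the 3 week WT mice. The other 444 tiles averaged 3.04% and 3.79% in the cultures and 3.68% and 3.71% in the mice. The DKO mice injected at 1 day had 8.88% and 9.54% over the 60 tiles, above their 3 controls at 6.39% to 8.63%, and 5.07% and 5.24% over the others, within the 4.58% to 5.33% of the controls. The 60 tiles were chosen by their distance above the injected controls, which favours tiles that are low in these same controls. The DKO difference cannot be told apart from this choice, and the averages are given without a test. The cultures were compared with 3 week WT mice that both had *Xist*, and held unsorted cells. Their label of 1 week does not give the time in vitro. The paper describes newborn hepatocytes kept in culture for several weeks, and names 3 weeks for its heatmap. The column name of 1 culture gives a time longer than 3 weeks, and that of the other gives none. Culture, age, cell type and, since no label gives the sex of the cultures, sex cannot be told apart.

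A smaller share of HOX regions than of all gene regions held a peak of H3K27ac, a mark of active enhancers and promoters. It was found in 0 of 39 HOX regions in the WT library and in 1 (*Hoxa2*) in the DKO library, while 53.0% and 57.6% of all 24397 gene regions held one. H3K4me1, a mark of enhancers that may be active or poised, had a peak in 29 (74.4%) and 28 (71.8%) HOX regions, near the 68.2% and 69.8% of all regions. In the other developmental families 26.2% had H3K27ac and 86.2% had H3K4me1 in WT. The WT regions without an H3K4me1 peak were *Hoxb1*, *Hoxb2*, *Hoxb4*, *Hoxb5*, *Hoxb6*, *Hoxb13*, *Hoxc4*, *Hoxc8*, *Hoxc12* and *Hoxd10*. Each mark has 1 library per genotype and no test was made.

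Open chromatin was found at some members. ATAC-Seq of liver had peaks in 19 and 14 HOX regions in the 2 WT libraries and in 14 and 23 in the 2 KO libraries, against 63.4% to 67.9% of all regions. The groups overlapped. *Hoxa3*, *Hoxa4*, *Hoxa5*, *Hoxa6*, *Hoxa9*, *Hoxd3*, *Hoxd4*, *Hoxd12* and *Hoxd13* were among those with one in all 4 libraries. No HOX region held a peak of HNF6, a liver transcription factor, in the 2 WT libraries, where 8.79% and 16.1% of all regions did, and 2 and 10 did in the KO libraries, where 17.1% and 37.8% of all did. The library with 10 had 34665 peaks, against 4387 to 9355 in the other 3. It also had the fewest sequence tags, 13437081, against 16332796 to 31259057. The 5hMeDIP library, which marks the oxidised form of methylated cytosine, had peaks in 27 of 39 HOX regions (69.2%) and in 75.7% of all.

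**Figure D5:**
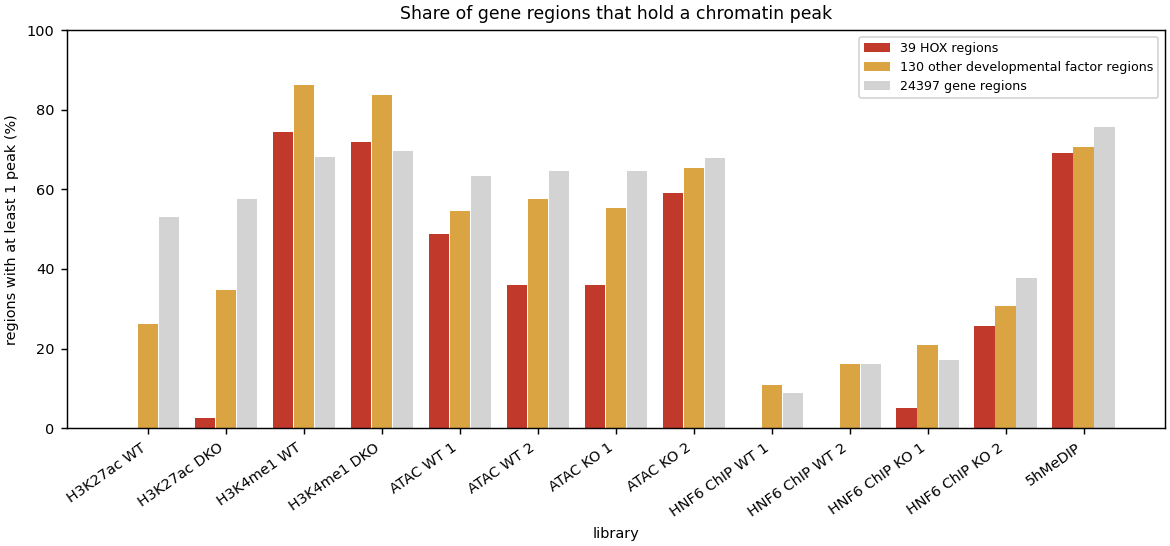
Share (y axis, %) of HOX regions, of regions of other developmental factors and of all gene regions that hold at least 1 peak in each of 13 libraries (x axis). The HOX bars for H3K27ac stand at 0 and 2.56%, against 53.0% and 57.6% for all regions, while those for H3K4me1 stand at 74.4% and 71.8%.

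Genes that work with or around the HOX clusters were expressed to various degrees. Of 9 HOX cofactors, which bind DNA together with HOX proteins, 5 entered the expression fit. *Meis1* was at 1.92 ± 0.444 FPKM (SD, n = 3) in 3 week WT mice and at 0.333 ± 0.0262 in 15 week WT mice, a change of -1.12 ± 0.113 log2(FPKM + 1) (SE, adjusted p = 6.82e-06 in limma). In DKO mice injected at 1 day *Meis1* rose to 1.00 ± 0.30 FPKM from 0.394 ± 0.0327 in controls (0.51 ± 0.113, adjusted p = 0.00826), and in those injected at 3 weeks it was at 0.371 ± 0.00247 (n = 2) against 0.349 ± 0.113 (adjusted p = 0.924). The difference between the injection times was not tested in the RNA. *Pknox1* fell in DKO mice injected at 1 day, by 0.50 ± 0.081 (adjusted p = 0.00108). Of the 5 cofactors 1 rose and 1 fell in DKO mice injected at 1 day, where 4.33% of all genes rose and 15.6% fell, and none passed after injection at 3 weeks. From 3 to 15 weeks 1 rose and 2 fell, where 24% of all genes rose and 9.32% fell.

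Polycomb genes, which keep HOX clusters silent, gave 24 of 25 to the fit. In DKO mice injected at 1 day 4 of the 24 fell (*Rbbp4*, *Rbbp7*, *Cbx2* and *Bmi1*), where 15.6% of all genes did, and none rose, where 4.33% did. The median difference was -0.12 over the list and -0.11 over all genes. With each of the 6 libraries left out in turn, *Cbx2* passed in 4 cases, *Rbbp4* in 3, *Rbbp7* in 2 and *Bmi1* in 1. In those injected at 3 weeks *Kdm2b* fell, by 0.44 ± 0.106 (SE, adjusted p = 0.0339 in limma), where 4.34% of all genes did. From 3 to 15 weeks 3 rose and 3 fell, where 24% and 9.32% of all genes did. *Ezh2*, the enzyme that sets the silencing mark H3K27me3 in dividing cells, fell from 1.69 ± 0.309 to 0.830 ± 0.27 FPKM (SD, n = 3), and its relative *Ezh1* rose (0.40 ± 0.103 log2, adjusted p = 0.00872). Of 10 trithorax genes, which keep HOX genes active, none passed in DKO mice injected at 1 day or between ages and *Kmt2a* fell in those injected at 3 weeks, by 0.67 ± 0.177 (SE, adjusted p = 0.0452 in limma). The calls of *Kdm2b* and *Kmt2a* were lost whichever of the 5 libraries was left out, with adjusted p of 0.0505 to 0.208 and 0.0609 to 0.435 in limma, and of 0.0877 and 0.0673 without the control with *Xist*. The median over all genes was -0.07 in that comparison and 0.15 between 3 and 15 weeks, and the median over the Polycomb list -0.10 and 0.08. The caudal genes *Cdx1*, *Cdx2* and *Cdx4*, which switch HOX genes on in the embryo, did not reach 1 FPKM.

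*Evx1* next to *Hoxa13* and the RNA *Hotair* of the Hoxc cluster were listed at 0 in each group, and *Evx2* next to *Hoxd13* had group means of up to 0.00818 FPKM. *Skap2*, a signalling adaptor beyond the other end of Hoxa, rose from 2.05 ± 0.105 to 6.58 ± 0.846 FPKM (SD, n = 3) between 3 and 15 weeks (1.31 ± 0.121 log2, SE, adjusted p = 2.78e-06 in limma) and was lower in DKO mice injected at 1 day, at 4.32 ± 0.466 against 6.86 ± 1.36 FPKM (-0.55 ± 0.121, adjusted p = 0.00758). *Mtx2*, a mitochondrial gene beside Hoxd, had means of 15.6 and 19.0 FPKM in WT mice at these ages. Of the 12 neighbours and cluster RNAs listed, 9 were in the table and 4 entered the fit, of which 2 rose with age, where 24% of all genes did, and 1 (*Skap2*) fell in DKO mice injected at 1 day, where 15.6% did.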

How the data were processed

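RRBS values were deposited by the authors as the methylated fraction of CpG readings per 100 bp tile, with a minimum coverage of 10 CpGs, and WGBS values as the fraction per 200 bp tile. Reads had been aligned to mm9 by BSMAP 2.74. The coverage behind a value is not in the tables, so depth is unknown, and 340235 to 611985 tiles per sample had a value. The FPKM table was made by the authors with TopHat2 and Cufflinks. Peaks were called by the authors with HOMER, and per the file headers each has a score and a normalized tag signal. Of all sample columns, 49 could not be assigned to a group and were not used. RRBS columns of injected controls, DKO and 3 week WT mice were linked to groups through animal numbers alone. Those of InsR KO, culture, fat and neutrophils were linked by column name, with IR read as insulin receptor. No 1 week RRBS column was assigned, so the cultures were compared with 3 week WT.

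Regions were genes with 2 kb flanks and at least 3 tiles. Tiles and regions with values in all 16 hepatocyte samples were fitted with limma 3.58.1 in R 4.3.3 (1 fit over all groups, trend, Benjamini-Hochberg adjustment, threshold 0.05), and so was log2(FPKM + 1). Scripts were tested on simulated data. Tissue and WGBS tiles were counted past 50 and 35 points. Named were the members called or the 4 with the largest difference, 6 per tissue, and 3 tiles. Alternatives were another scale, region, limit, filter and samples left out. The members and lists were chosen with earlier results of these data known. One member enters the counts and is not reported by name here.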

Additional observations from a re-analysis of the deposited data

Results flagged for a closer look

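In 2 HOX regions 1 of the 6 injected controls lay far from the other 5. *Hoxd4* was at 20.5% in the third control injected at 1 day, while the others were at 9.10% to 12.3%. *Hoxa5* was at 5.92% in the third control injected at 3 weeks, and the others were at 9.74% to 11.3%. The latter mouse is also the 1 injected control with *Xist* in its RNA library (88.1 FPKM). Such a gap arises by chance in about 1 of 20 groups, and 38 regions with at least 3 tiles were among those examined.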

How the results depend on the processing

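Of 193 recalculations 136 kept the result, 49 moved a count of HOX features and 8 ended the call of *Hoxc10* in InsR KO mice. Regions called numbered 2 in DKO injected at 1 day with the spread of these groups alone (*Hoxb3*, *Hoxc8*) and 0 to 1 without each mouse. In 3 week WT they numbered 1 on a logit scale (*Hoxb3*), 1 in the gene body alone (*Hoxc10*), 1 with these groups alone (*Hoxb3*) and 0 to 1 without each mouse (*Hoxa3*). In InsR KO they numbered 0 on a logit scale, in the gene body, around the start and with these groups alone, and 0 to 2 without each mouse. In culture they numbered 1 on a logit scale and 0 to 1 without each sample. With no limit in points 1 tile was called in DKO injected at 1 day, 1 in 3 week WT, 2 in InsR KO and 1 in culture, and without each sample 0 to 2 in InsR KO and 0 to 6 in culture. A lone sample was then assumed to vary like the other groups. Without the FPKM minimum 2 members were lower at 15 weeks. WGBS tiles of the newborn numbered 26 at 25 points, 0 at 50 and 2 in the gene body, and of the DKO 11 and 0 at 25 and 50 points. Tiles of fat numbered 88 at 35 points and 18 at 65, and 40 to 44 without each control. With the top-scoring peaks alone (50% of each list), H3K27ac in DKO had 0 members, H3K4me1 15 in DKO and 15 in WT, HNF6 0 in the first KO, and ATAC-Seq 4 and 4 in WT and 2 and 3 in KO. In the gene body alone H3K27ac in DKO had 0, HNF6 1 and 5 in KO, and ATAC-Seq 9 and 8 in WT and 6 and 10 in KO. The causes were not tested. No paired analysis was possible because the columns carry animal numbers and no replicate numbers. No coverage per RRBS or WGBS tile was available, which limits what single tiles can show. Depth was given for the peak libraries alone.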
